A study of Mus musculus with 12 samples.

Results

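The 10 genes described here encode ATP-binding cassette (ABC) transporters that pump drugs out of cells: Abcb1a, Abcb1b, Abcb4, Abcc1, Abcc2, Abcc3, Abcc4, Abcc5, Abcc10 and Abcg2. They were followed in mouse acute myeloid leukaemia (AML) lines that are sensitive or resistant to cytarabine (Ara-C), a cytidine analogue used to treat AML. Members were chosen by name, and every probe set that the platform annotation pairs with 1 of the 10 symbols was used. This gave 23 probe sets for 10 of the 18193 genes on the array, and 5 of the 10 genes had several probe sets. No probe set was shared by a member and another gene.

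Total RNA was measured on 12 one-colour arrays, 3 for each of 4 leukaemia lines. The lines come from mice of the BXH-2 strain, which develops myeloid leukaemia. B117H, labelled Ara-C resistant, was derived from the sensitive parental line B117P, and B140H, labelled resistant as well, from the sensitive parental line B140P. All 4 lines share the same protocol labels, rising Ara-C doses and passage in drug-free medium, so these labels do not set resistant cells apart from parental ones. The labels do not say whether a line is 1 clone, and nothing says that arrays A, B and C of a line came from separate cultures. The p-values therefore measure only the spread between these arrays, which may be technical. With 1 resistant line per parental line, a change could belong to that line alone, and resistance and line cannot be told apart.

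ABC transporters use the energy of ATP to carry molecules across membranes. P-glycoprotein, made in mice from Abcb1a and Abcb1b, exports bulky hydrophobic drugs such as anthracyclines and vinca alkaloids. The multidrug resistance proteins of the Abcc subfamily export organic anions, including glutathione and glucuronide conjugates, and Abcc4 and Abcc5 also carry cyclic nucleotides and the monophosphates of nucleoside analogues. Abcg2, the breast cancer resistance protein, exports mitoxantrone, topotecan and urate, and marks stem-like cells of the bone marrow. Ara-C acts only after the cell has phosphorylated it.

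Array medians lay between 118 and 131 intensity units, and arrays of 1 line correlated at 0.988 to 0.997 across probe sets. Array B of B140H had the highest median, and its lower quartile was 58.6 against 50.8 to 53.7 on the other 11 arrays. All 13 defining myeloid markers were above the median probe set in B117P and in B117H, against 9 in B140P and 10 in B140H. Their summed intensity was 84794 to 96784 in B117P, 68058 to 71574 in B117H, 33102 to 35585 in B140P and 28956 to 30198 in B140H. Kit and Cd34 were dim in the B140 lines, with line means of at most 5.53 and 5.36 on the log2 scale. The 4 measured B cell markers summed to 406 to 472 in B117P, 371 to 405 in B117H, 2108 to 2677 in B140P and 3372 to 4137 in B140H. T cell markers (6 measured, 612 to 893), erythroid and megakaryocyte markers (5 measured, 701 to 939) and fibroblast markers (5 measured, 423 to 544) overlapped across the lines. No marker was at 0, and 17 genes of other tissues had line means of 4.01 to 8.47 on the log2 scale. Transcripts foreign to these cells can reach that range on this array. Its top was Prm1 in every line, and the median of the 17 was 6.77 to 6.83.

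The promoters of the 3 transporters that carry most of the changes and that RefSeq's table lists are shown first, since Abcc4 fell in both resistant lines, Abcc2 in B117H and Abcb4 rose in B140H. Each run holds 300 bases of GRCm38.p6, from 250 before to 50 after the annotated start, 5′ to 3′ on the strand of the gene. Capitals mark every match, on either strand, to any of the motifs below. The GC box was searched as GGGCGG. The next motif was the CCAAT box, by those letters. The core of the antioxidant response element was searched as TGACNNNGC. The core bound by the aryl hydrocarbon receptor was searched as GCGTG. For Abcc4 the more upstream of 2 listed starts was taken. The windows are chr14:118706170-118706469 on the minus strand for Abcc4, chr19:43782058-43782357 on the plus strand for Abcc2 and chr5:8893471-8893770 on the plus strand for Abcb4.
Abcc4: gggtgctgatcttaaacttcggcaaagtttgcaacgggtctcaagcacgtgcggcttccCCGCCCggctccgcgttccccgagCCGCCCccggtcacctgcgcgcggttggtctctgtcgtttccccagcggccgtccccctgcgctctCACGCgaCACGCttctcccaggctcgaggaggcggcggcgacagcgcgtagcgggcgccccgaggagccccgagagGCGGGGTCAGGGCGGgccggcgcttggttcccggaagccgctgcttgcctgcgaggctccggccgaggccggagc
Abcc2: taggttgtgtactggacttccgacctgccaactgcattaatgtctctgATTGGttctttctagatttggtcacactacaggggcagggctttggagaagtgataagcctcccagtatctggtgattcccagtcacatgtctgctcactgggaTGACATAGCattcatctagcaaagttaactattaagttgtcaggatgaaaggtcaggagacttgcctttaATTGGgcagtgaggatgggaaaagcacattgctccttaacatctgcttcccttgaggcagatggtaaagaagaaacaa
Abcb4: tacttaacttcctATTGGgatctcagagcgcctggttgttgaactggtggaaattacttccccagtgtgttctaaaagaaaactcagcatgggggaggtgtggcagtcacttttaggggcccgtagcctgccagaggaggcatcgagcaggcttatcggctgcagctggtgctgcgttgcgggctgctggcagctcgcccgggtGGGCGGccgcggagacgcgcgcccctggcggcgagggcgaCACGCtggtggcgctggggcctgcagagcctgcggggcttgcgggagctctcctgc

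The Abcc4 window was 72.7% G and C and held 3 GC boxes, 1 antioxidant core and 2 aryl hydrocarbon receptor cores. Its antioxidant core is on the minus strand and lies directly before the GC box nearest the start, with no base in common. The Abcc2 window was 45% G and C, with 2 CCAAT boxes and 1 antioxidant core and no GC box. The Abcb4 window was 64% G and C, with 1 GC box, 1 CCAAT box and 1 aryl hydrocarbon receptor core. A TATA box (TATAAA) was in none of the 3 windows. Of all 32851 promoters in the table, 35.7% held a GC box, 37.4% a CCAAT box, 12.4% the antioxidant core, 32.4% the aryl hydrocarbon receptor core and 13.6% a TATA box. These matches describe the letters only. RefSeq's table listed promoters for 8 of the 10 members.

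All levels below are log2(intensity + 1), and a change is a difference between line means on that scale. They were tested with limma on all 12 arrays, with p-values adjusted by Benjamini-Hochberg over 45037 probe sets, and a probe set was called at an adjusted p under 0.05. Where a gene has several probe sets, the leading one is the brightest over all arrays. Levels of different probe sets are not ranked against each other, because probes bind with different strength. For the same reason the range of the other-tissue genes is only a rough guide to low signal. In bulk RNA, fewer cells that carry a transcript and less RNA per cell cannot be told apart.

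In B117H, 4 of the 23 probe sets were called against B117P, while 6.95% of all probe sets were. Of these 4, 1 rose (background 3.49%) and 3 fell (3.46%). By leading probe set 3 of the 10 genes were called, Abcc1, Abcc2 and Abcc4, and all 3 fell, beside 9.41% of all genes called and 4.68% that fell. In B140H, 2 of the 23 probe sets were called against B140P (background 4.65%). Abcb4 rose (1.98%) and Abcc4 fell (2.67%), which is 2 of 10 genes beside 6.56% of all genes. The B117H and B140H arrays did not overlap those of their parental line for 10 of 23 and 4 of 23 probe sets, where 21.1% and 18.8% of all probe sets did not overlap. The median change over the 10 leading probe sets was -0.14 in B117H and 0.04 in B140H, against -0.01 and 0.05 over all genes.

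**Figure D1:**
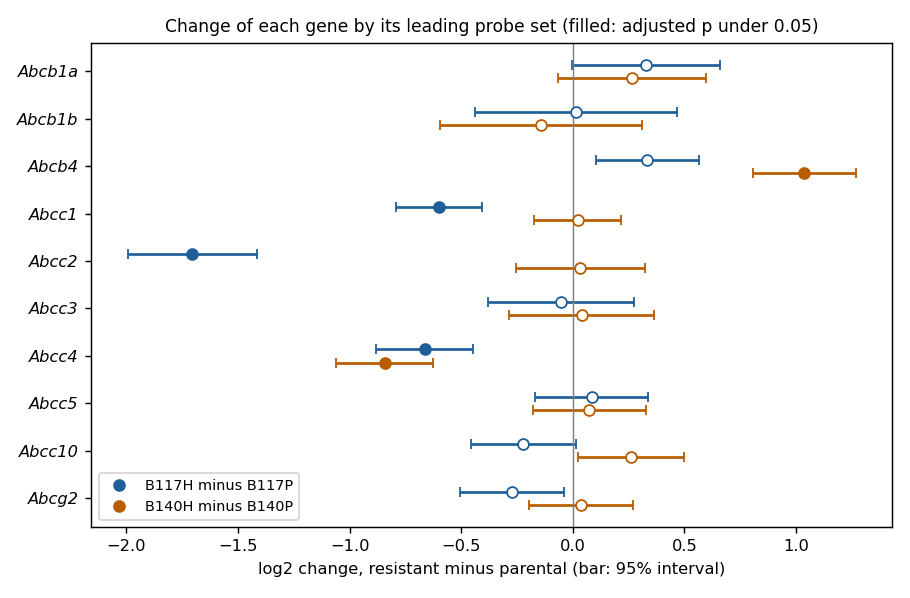
Log2 change (x axis, resistant minus parental line) of each of the 10 transporter genes (y axis) by its leading probe set, with 95% intervals from limma; blue is B117H minus B117P, orange is B140H minus B140P, and filled points have an adjusted p under 0.05. Abcc4 lies to the left of 0 in both lines, Abcc1 and Abcc2 only in B117H, and the only filled point to the right of 0 is Abcb4 in B140H.

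Abcc4, the multidrug resistance protein that exports cyclic nucleotides and nucleotide analogues, was lower in both resistant lines. Its single probe set, 1443870_at, read 12.07, 12.37 and 12.21 on arrays A, B and C of B117P and 11.51, 11.64 and 11.51 in B117H. It read 10.87, 10.97 and 10.72 in B140P and 9.98, 10.03 and 10.02 in B140H. Every resistant array lay below all 3 arrays of its parent, and no array of 1 line overlapped an array of another.

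In linear intensity, Abcc4 went from 4779 ± 496 (SD, n = 3) in B117P to 3007 ± 167 in B117H, and from 1855 ± 159 in B140P to 1032 ± 20.2 in B140H. It fell by 0.66 in B117H (SE 0.10, 95% interval -0.88 to -0.45, limma adjusted p = 0.00107), a 1.58-fold decrease. It fell by 0.84 in B140H (SE 0.10, interval -1.06 to -0.62, adjusted p = 0.000298), a 1.79-fold decrease. The difference between these falls was -0.18 (interval -0.49 to 0.13, adjusted p = 0.612) and was not called. Differences within that interval remain possible. The order of the lines was B117P, B117H, B140P, B140H from high to low. Abcc4 was 2.57-fold lower in B140P than in B117P (change -1.36, adjusted p = 4.63e-07) and 2.91-fold lower in B140H than in B117H (change -1.54, adjusted p = 1.27e-07). 

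Among all genes 48 fell in both resistant lines, or 0.264%, and Abcc4 was the only one of the 10 transporters among them. The summed myeloid markers were also lower in each resistant line than in its parent, but the list was mixed. In B117H 4 of 13 markers were called lower and 5 of 13 changed upward without a call, with a median change of -0.33. In B140H 2 of 13 were called lower and 6 of 13 changed upward without a call, with a median of -0.08, and the median marker level was 10.03 in B140P and 10.38 in B140H. The part of these markers in the fall of Abcc4 was not tested. The fall in B117H missed the threshold in 1 alternative, without all C arrays (change -0.65, adjusted p = 0.0572). Without array B of B140H the change in that line was -0.85 (adjusted p = 0.00122).

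**Figure D2:**
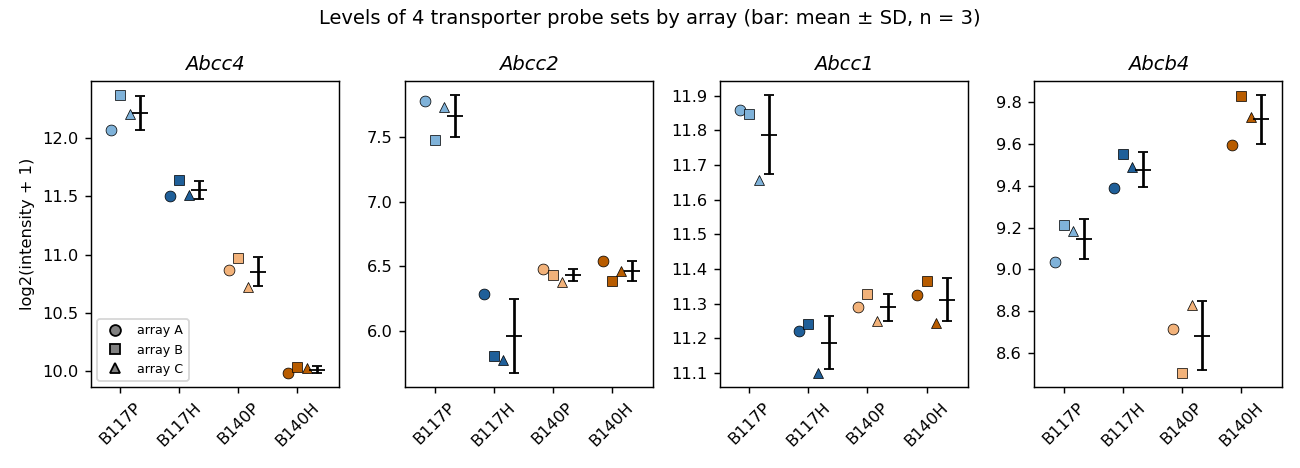
Level (y axis, log2(intensity + 1)) of the leading probe sets of Abcc4, Abcc2, Abcc1 and Abcb4 in the 4 lines (x axis), 1 point per array with circles for A, squares for B and triangles for C, beside bars for the mean ± SD (n = 3); each panel has its own y range, which does not start at 0. Abcc4 steps down from 12.22 in B117P to 10.01 in B140H, and Abcb4 is highest in B140H. Abcc2 and Abcc1 are highest in B117P, and they drop from parental to resistant line in the B117 lineage alone.

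Abcc2, a multidrug resistance protein best known as the exporter of bilirubin glucuronide and other conjugates into bile, fell only in B117H. Its probe set, 1450109_s_at, read 7.78, 7.48 and 7.73 in B117P and 6.29, 5.81 and 5.78 in B117H. It read 6.48, 6.43 and 6.38 in B140P and 6.54, 6.39 and 6.46 in B140H. B117P stood above the other 3 lines on every array, and the B140 arrays overlapped each other.

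Mean intensity of Abcc2 was 202.6 ± 22.3 (SD, n = 3) in B117P and 62.0 ± 13.2 in B117H. It fell by 1.71 in B117H (SE 0.13, interval -1.99 to -1.42, limma adjusted p = 6.11e-06), a 3.26-fold decrease and the widest of any member in either resistant line. In B140H the change was 0.03 (interval -0.26 to 0.32, adjusted p = 0.945). The B140 change exceeded the B117 change by 1.74 (SE 0.19, adjusted p = 0.000114), so the 2 lineages differed by test. B140P was already 2.35-fold below B117P (change -1.23, adjusted p = 1.72e-05). B140H stood 0.51 above B117H (adjusted p = 0.0150), a call lost in 7 alternatives, 3 of which leave out 1 array (0.0718 without B117H B, 0.0737 without B117H C and 0.0532 without B140H A). The Abcc2 levels of all 4 lines lie within the range of the 17 genes of other tissues, where RMA compresses changes.

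Abcc1, the multidrug resistance protein that exports glutathione conjugates and leukotriene C4, also fell in B117H and not detectably in B140H. Its leading probe set, 1452233_at, read 11.86, 11.85 and 11.66 in B117P and 11.22, 11.24 and 11.10 in B117H. It read 11.29, 11.33 and 11.25 in B140P and 11.32, 11.37 and 11.24 in B140H. B117P was the high line, and the B117H arrays lay at or just below those of the B140 lines.

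The mean intensity of Abcc1 was 3541 ± 274 (SD, n = 3) in B117P and 2334 ± 123 in B117H. It fell by 0.60 in B117H (SE 0.09, interval -0.79 to -0.41, limma adjusted p = 0.000948), a 1.52-fold decrease. In B140H the change was 0.02 (interval -0.17 to 0.22, adjusted p = 0.947), and the test of the difference gave 0.62 (adjusted p = 0.00828). That difference missed the threshold with only 2 arrays per line, at 0.116 without all A, 0.115 without all B and 0.089 without all C arrays. B140P lay 0.50 below B117P (adjusted p = 0.00123).

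The second Abcc1 probe set, 1421378_s_at, spread more widely. It read 9.69, 8.70 and 8.72 in B117P and 8.84, 8.58 and 8.20 in B117H, so the arrays overlapped. Its change was -0.50 in B117H (interval -1.06 to 0.07, adjusted p = 0.425) and -0.04 in B140H (adjusted p = 0.970). Array A of B117P stood apart from arrays B and C on this probe set.

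Abcb4, a close relative of P-glycoprotein that flips phosphatidylcholine across the membrane and is required for bile formation, was the only member whose leading probe set rose with a call. Its probe set, 1449818_at, read 8.71, 8.50 and 8.83 in B140P and 9.59, 9.83 and 9.73 in B140H. It read 9.04, 9.21 and 9.18 in B117P and 9.39, 9.55 and 9.49 in B117H. In both lineages every resistant array stood above every parental one.

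Mean intensity of Abcb4 was 411.1 ± 46.4 (SD, n = 3) in B140P and 843.2 ± 68.4 in B140H, and 565.6 ± 36.8 in B117P and 713 ± 41.6 in B117H. It rose by 1.04 in B140H (SE 0.11, interval 0.81 to 1.27, limma adjusted p = 0.000111), a 2.05-fold increase that was called in all 26 alternatives. Without array B of B140H the rise was 0.98 (adjusted p = 0.000581). In B117H the change was 0.33 (interval 0.10 to 0.57, adjusted p = 0.0942), which missed the threshold. The difference between the lineages was 0.70 (adjusted p = 0.0117), and it missed the threshold without all A (0.0586), without all B (0.144) and without all C arrays (0.128). B140P started 0.46 below B117P (adjusted p = 0.00726; 0.117 without all B and 0.0630 without all C arrays), while B140H and B117H differed by 0.24 (adjusted p = 0.150).

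B cell markers were higher in B140H than in B140P in sum, and none of the 4 was called there. Cd79a, part of the B cell receptor complex, changed by 0.87 (adjusted p = 0.0518) and its partner Cd79b by 0.59 (adjusted p = 0.146), while Pax5 changed by 0.26 (adjusted p = 0.622) and Ms4a1 by -0.12 (adjusted p = 0.642). In B117H Cd79b fell by 0.75 (adjusted p = 0.0385), and the changes of the other 3 were -0.07 for Cd79a, 0.02 for Pax5 and 0.00 for Ms4a1. The part of these markers in the changes of Abcb4 was not tested.

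No change of Abcb1b, one of the P-glycoprotein genes, was called in either resistant line. Its leading probe set, 1418872_at, read 10.64, 11.28 and 11.25 in B117P, 10.90, 11.05 and 11.26 in B117H, 10.31, 10.66 and 10.58 in B140P and 10.01, 10.29 and 10.81 in B140H. The arrays of each resistant line overlapped those of its parent. The change was 0.01 in B117H (interval -0.44 to 0.47, limma adjusted p = 0.997) and -0.14 in B140H (interval -0.60 to 0.31, adjusted p = 0.829). Changes inside these wide intervals remain possible. B140H lay 0.70 below B117H (adjusted p = 0.0304, and 0.000936 with the array letter as a block). That call was lost in 6 alternatives, 4 of which leave out 1 array (0.0720 without B117H B, 0.117 without B117H C, 0.122 without B140H A and 0.0900 without B140H B). B140P lay 0.54 below B117P (adjusted p = 0.107), a difference that was called in 4 alternatives. These were the array letter as a block (adjusted p = 0.00615) and array weights (0.0145). The others were the fits without B117P A (0.0227, change -0.75) and without all A arrays (0.0385, change -0.64). The dimmer Abcb1b probe set, 1446701_at, changed by -0.22 in B117H (adjusted p = 0.209) and 0.08 in B140H (adjusted p = 0.766).

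Abcb1a, the other P-glycoprotein gene, was dim on both probe sets. Its leading probe set, 1419759_at, had line means of 5.13 in B117P, 5.45 in B117H, 5.03 in B140P and 5.30 in B140H, and changed by 0.33 (limma adjusted p = 0.328) and 0.27 (adjusted p = 0.489). The second probe set, 1419758_at, read 4.07, 4.11 and 4.16 in B117P and 4.74, 4.45 and 4.63 in B117H. It rose by 0.50 there (SE 0.12, adjusted p = 0.0244), and its B140H change was -0.04 (adjusted p = 0.935). In intensity that rise was from 16.3 ± 0.553 (SD, n = 3) to 23.5 ± 2.46, where the lowest value on any array is 7.65.

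The Abcb1a rise was lost in 9 of 25 alternatives. Leaving out B117P A gave 0.0747, B117P B 0.0734, B117P C 0.0610, B117H A 0.108 and B117H C 0.0873 as adjusted p. The change between lineages of -0.53 (adjusted p = 0.0877) passed with the array letter as a block (0.0313) and without B140H A (0.0214, change -0.66). B140H lay 0.54 below B117H on this probe set (adjusted p = 0.00524, and 0.127 without all C arrays).

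Abcc5, a carrier of cyclic nucleotides and nucleotide analogues like Abcc4, had 10 probe sets, and none was called in either resistant line. By limma 3 of the 10 had an unadjusted p under 0.05 in B117H and 0 in B140H. Its leading probe set, 1435683_a_at, had line means of 9.97 in B117P, 10.05 in B117H, 9.91 in B140P and 9.98 in B140H, with changes of 0.08 (interval -0.17 to 0.34, adjusted p = 0.911) and 0.07 (interval -0.18 to 0.33, adjusted p = 0.843). Across the 10 probe sets the changes ran from -0.29 to 0.30 in B117H and from -0.27 to 0.34 in B140H. Between the resistant lines 1430882_at was 0.48 higher in B140H (adjusted p = 0.0492), a call lost in 16 of 25 alternatives, 10 of them leaving out 1 array, at 0.0530 to 0.168. Without B140H B that gap was 0.28 (adjusted p = 0.166).

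**Figure D3:**
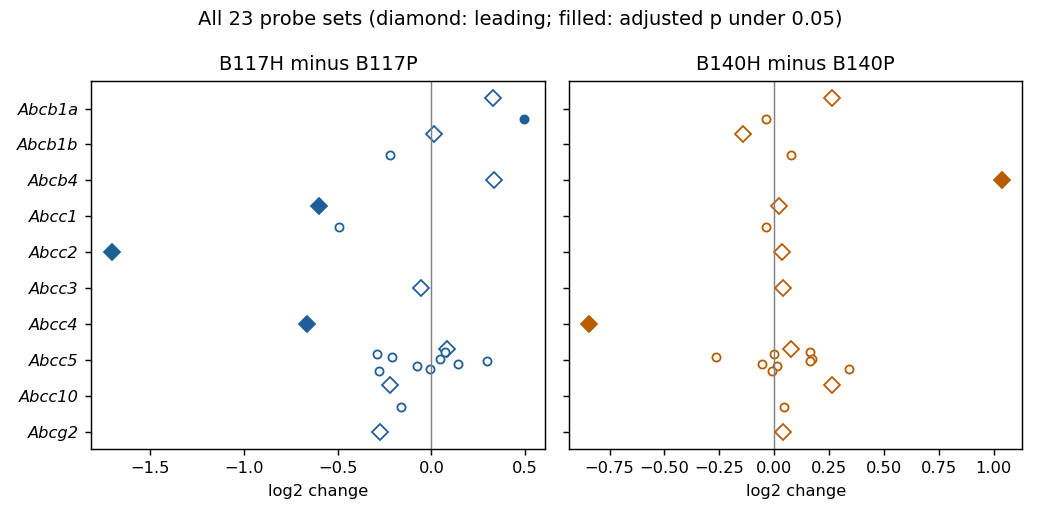
Log2 change (x axis) of all 23 transporter probe sets, grouped by gene (y axis), in B117H minus B117P (left) and B140H minus B140P (right), with an x range of its own in each panel; diamonds are leading probe sets, circles the others, and filled symbols have an adjusted p under 0.05. The 10 Abcc5 probe sets lie on both sides of 0, and the filled symbols are 4 on the left and 2 on the right.

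Abcc10, a multidrug resistance protein that carries taxanes and some nucleoside analogues, had no call in either resistant line. Values of the leading probe set moved in opposite directions. The second probe set, 1428009_a_at, had line means of 6.80 in B117P, 6.64 in B117H, 7.42 in B140P and 7.47 in B140H. On it the arrays of each resistant line overlapped those of its parent. Its leading probe set, 1447476_at, read 7.28, 7.60 and 7.56 in B117P, 7.25, 7.26 and 7.26 in B117H, 7.49, 7.59 and 7.54 in B140P and 7.63, 7.81 and 7.96 in B140H. The B117H arrays lay below those of B117P, and the B140H arrays above those of B140P. The changes were -0.22 (interval -0.46 to 0.02, limma adjusted p = 0.369) and 0.26 (interval 0.03 to 0.50, adjusted p = 0.273), and their difference was 0.48 (adjusted p = 0.0850). The difference passed in 5 alternatives, among them the block by array letter (0.0305), the fit without B117P A (0.0295, change 0.58) and the fit without B140H A (0.0443, change 0.57).

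B140H stood above B117H on both Abcc10 probe sets, by 0.55 on the leading one (adjusted p = 0.00246, and 0.0774 without all C arrays) and by 0.83 on 1428009_a_at (adjusted p = 0.000861). On 1428009_a_at the parental lines differed too, with B140P 0.62 above B117P (adjusted p = 0.00735, and 0.0658 without all A arrays). On the leading probe set the parental difference was 0.06 (adjusted p = 0.847), so the probe sets of this gene disagreed about the parental lines. Both lie within the range of the genes of other tissues.

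Abcc3, an exporter of bile salts and glucuronides, and Abcg2 gave low values in all 4 lines. The Abcc3 line means by 1428988_at were 6.30, 6.25, 6.36 and 6.40 in B117P, B117H, B140P and B140H, and the changes were -0.05 (interval -0.38 to 0.27, limma adjusted p = 0.975) and 0.04 (interval -0.29 to 0.37, adjusted p = 0.942). The Abcg2 means by 1422906_at were 5.05, 4.78, 4.94 and 4.98, with changes of -0.27 (interval -0.50 to -0.04, adjusted p = 0.204) and 0.04 (interval -0.19 to 0.27, adjusted p = 0.917). Both genes lay within the range of the other-tissue genes, where a change of a faint transcript could go unseen.

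Averaged over both lineages, 4 of 23 probe sets and 4 of 10 genes were called, beside 5.47% of probe sets and 7.86% of genes. Abcb4 rose by 0.69 (limma adjusted p = 0.000161), and Abcc4, Abcc2 and Abcc1 changed by -0.75 (4.63e-05), -0.84 (0.000187) and -0.29 (0.0163). Only the Abcc4 average stands on a called change in both lines. The Abcc1 average missed the threshold in 5 alternatives, 1 of them a single array (0.0526 without B140P B, change -0.28). The test between lineages called 3 of 23 probe sets and 3 of 10 genes, Abcb4, Abcc1 and Abcc2, beside 7.58% of probe sets and 10.4% of genes. With the array letter as a block 5 probe sets were called, as Abcc10 and the second Abcb1a probe set passed too.

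Several transporters also differed between the parental lines. Of the 23 probe sets 5 were called between B140P and B117P (background 18%), 1 higher in B140P (9.2%) and 4 lower (8.76%). By gene 4 of 10 were called and all 4 were lower in B140P, namely Abcc4, Abcc2, Abcc1 and Abcb4, beside 23.8% of genes called and 11.8% lower. Between B140H and B117H 7 of 23 were called (20.7%), 4 higher in B140H (10.6%) and 3 lower (10.1%), which came to 4 of 10 genes (27%), with Abcc2 and Abcc10 higher and Abcb1b and Abcc4 lower in B140H. Arrays did not overlap for 10 of 23 probe sets between the parental lines (32.2% of all) and for 9 of 23 between the resistant lines (31.8%). The called share of probe sets lay near that of the array in the parental comparison.

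The Abcc2 fall in B117H came with falls of its neighbours on the chromosome. These windows of 10 measured genes to either side were drawn after values had been seen, and they carry no test as groups. Around Abcc2 on chromosome 19, 11 of 20 neighbours fell in B117H and 0 rose, with a median change of -0.62. Cutc, the gene next to it, fell by 2.15 (limma adjusted p = 5.42e-08). Falls were also called for Cwf19l1 (-2.01), Erlin1 (-1.70) and Cox15, which makes haem A for cytochrome oxidase (-1.45). In B140H 0 of the 20 fell and 1 rose, Cpn1 by 1.64 (adjusted p = 3.24e-05), and the median was 0.10. Between the parental lines 10 of 20 were lower in B140P, with a median of -0.36. Over the chromosome 61 of 611 genes fell in B117H, or 9.98%, beside 4.68% of all genes.

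Around Abcc1 on chromosome 16, 7 of 20 neighbours fell in B117H with a median of -0.16. The widest was Cebpd, a C/EBP transcription factor of myeloid cells, which fell by 0.87 (limma adjusted p = 0.000573). In B140H 0 fell and 1 rose, and 8 were lower in B140P than in B117P. Chromosome 16 as a whole had 125 of 598 genes lower in B117H, or 20.9%, beside 4.68% of all genes. Abcc5 lies on the same chromosome, where 8 of its 20 neighbours fell and 1 rose in B117H with a median of -0.36, while the leading Abcc5 probe set changed by 0.08.

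Around Abcc4 on chromosome 14, fewer neighbours fell in B117H than around Abcc2 or Abcc1. The windows took genes at any level, so genes that these cells do not express may enter the medians. Changes were negative for 14 of the 20 in B117H and 12 of the 20 in B140H. Between the parental lines 3 of 20 were lower in B140P and 0 higher. In B117H 2 of 20 fell, Gpr180 (-0.64) and Tgds (-0.56), and the median was -0.06. In B140H 3 of 20 fell, Mbnl2 (-0.81), Rap2a (-0.67) and Tgds (-0.47), and the median was -0.01. On that chromosome 105 of 648 genes fell in B140H (16.2%), beside 6.56% of all genes called in either direction and 2.67% of all probe sets that fell. In B117H 17 fell (2.62%), beside 4.68% of all genes. The genes directly beside Abcc4, Sox21 and Cldn10, were not called in either line.

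Abcb4 sits next to Abcb1b and Crot on chromosome 5, with Abcb1a just beyond Abcb1b. Of its 20 neighbours 1 rose in B140H, Tmem243 by 0.47, and the median was 0.08. The P-glycoprotein genes beside it were not called there, with leading changes of -0.14 for Abcb1b and 0.27 for Abcb1a. In B117H 1 of 20 rose, Rundc3b by 0.54. On the whole chromosome 88 of 1131 genes rose and 14 fell in B140H, beside 6.56% of all genes called in either direction. Over all probe sets 1.98% rose and 2.67% fell in B140H. The part of chromosome position in the changes of the transporters was not tested.

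**Figure D4:**
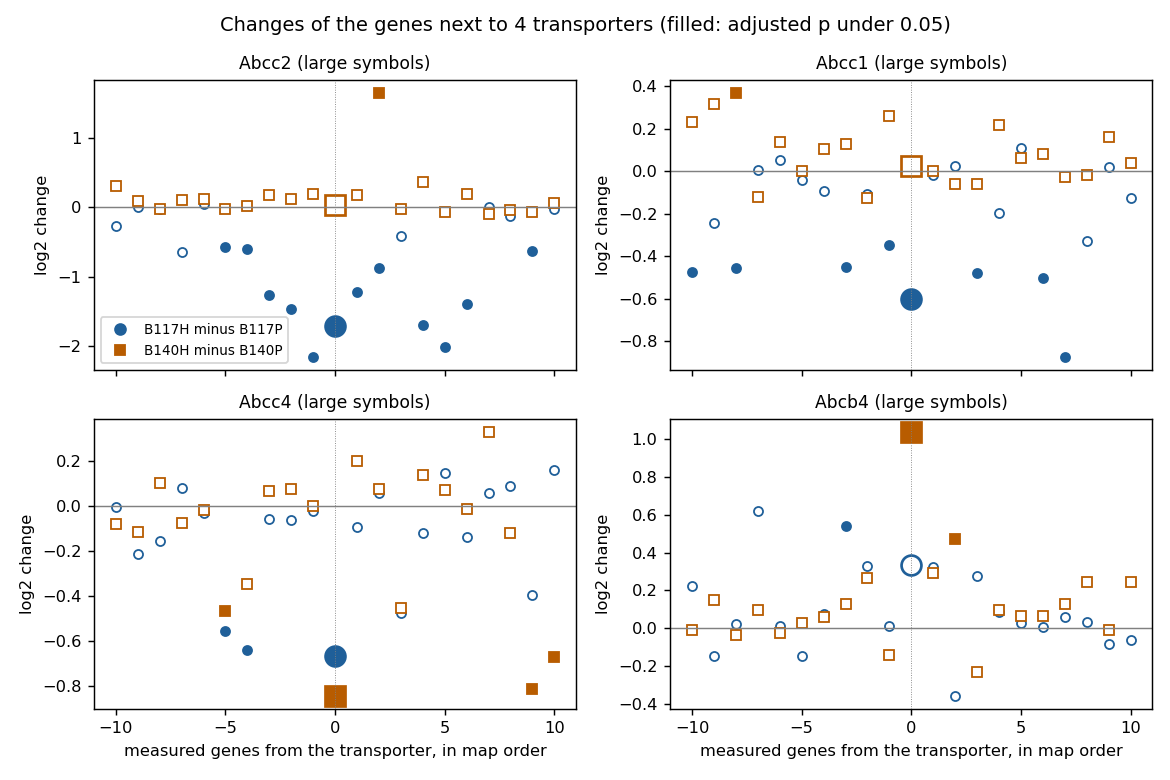
Log2 change (y axis, a range of its own in each panel) of the 10 measured genes to either side of Abcc2, Abcc1, Abcc4 and Abcb4 (x axis, rank along the chromosome from the transporter, which is at 0 in large symbols); blue circles are B117H minus B117P, orange squares B140H minus B140P, and filled symbols have an adjusted p under 0.05. Filled blue circles surround Abcc2 from -5 to 9, while Abcb4 stands alone at 1.04 above its neighbours.

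Genes with the most similar pattern over the 12 arrays are given as a description, since arrays of a line share that line and 10775 genes were compared. The compared genes were named ones whose leading probe set was above the median probe set. The patterns most like Abcc4 were those of Fkbp11 (chromosome 15, Pearson r = 0.986), Mt1, a metallothionein (chromosome 8, 0.981), and Srgap3 (chromosome 6, 0.980). For Abcc2 they were Cutc (0.977) and Mrpl43 (0.972), both on chromosome 19, and Atpsckmt on chromosome 15 (0.971). For Abcc1 they were Brix1 (chromosome 15, 0.976), Cutc (chromosome 19, 0.972) and Wdr70 (chromosome 15, 0.967). For Abcb4 they were Lamtor3 (chromosome 3, 0.941), Znhit1 (chromosome 5, 0.914) and Aimp1 (chromosome 3, 0.909).

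The rest of the ABC family, which includes lipid, peptide and haem carriers, was measured for 38 of 42 listed genes. In B117H 2 rose and 1 fell by limma, beside 9.41% of all genes called. Tap2 and Tap1, the peptide pump that loads MHC class I, rose by 0.82 (adjusted p = 0.00611) and 0.60 (adjusted p = 0.0126), and Abcb6, a porphyrin carrier, fell by 0.73 (adjusted p = 0.000915). In B140H 2 rose and 2 fell, beside 6.56% of all genes called. There Abcb6 rose by 0.45 (adjusted p = 0.0334) and Abcb10, a mitochondrial carrier needed for haem synthesis, by 0.44 (adjusted p = 0.00818). Abcd2 and Abcd3, which bring fatty acids into peroxisomes, both fell, with changes of -1.30 (adjusted p = 0.000143) and -0.52 (adjusted p = 0.0162). Median changes over the 38 genes were 0.00 and 0.10. None of the 5 other Abcc-subfamily genes measured was called in either line, and by limma 0 of the 5 had an unadjusted p under 0.05.

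Of the genes that regulate efflux transporters 19 were measured, and the shares called lay around those of all genes (9.41% in B117H and 6.56% in B140H). Of the 19, 1 rose in B117H, Hif1a, the oxygen-sensing factor, by 0.53 (limma adjusted p = 0.0367). In B140H 2 fell, Arnt, the partner of both Hif1a and the aryl hydrocarbon receptor (change -0.75, adjusted p = 0.00274) and Myc (change -0.60, adjusted p = 0.0280). Nfe2l2, the factor that binds antioxidant elements, changed by -0.06 (adjusted p = 0.967) and -0.20 (adjusted p = 0.591), and its inhibitor Keap1 by -0.10 (adjusted p = 0.829) and -0.30 (adjusted p = 0.140). Nfe2l2 and Keap1 were named after their values were seen, because the motif search used their element.

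Multidrug resistance proteins export glutathione conjugates, so the genes of glutathione supply and conjugation were counted as well. Of 22 measured, 5 rose and 2 fell in B117H, where 9.41% of all genes were called. Gsta4, which conjugates lipid aldehydes, rose by 1.05 (limma adjusted p = 0.000131), Mgst3 by 0.59 (adjusted p = 0.0138) and Gstz1 by 0.57 (adjusted p = 0.00136), while Gstm1 fell by 1.20 (adjusted p = 0.000852). In B140H 1 rose, Mgst2 by 0.70 (adjusted p = 0.00707), and 0 fell, beside 6.56% of all genes called.

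Of the major vault protein list, 2 of 3 genes were measured. Parp4, a vault subunit, rose by 0.56 in B117H (limma adjusted p = 0.0171), and Mvp changed by -0.05 (adjusted p = 0.957). In B140H 0 of the 2 was called, and 0 had an unadjusted p under 0.05. The list for holding transporters at the membrane had 8 genes, namely scaffolds and the kinase Pim1. Of these 8, Slc9a3r1 rose by 0.45 in B117H (adjusted p = 0.0141). In B140H 0 of them were called and 0 had an unadjusted p under 0.05 by limma.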

How the data were processed

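The deposited values are probe-set intensities, 1 column per array, summarised by the authors with RMA per the submitters' processing notes. The RMA version and options were not given in the sources used here. The linear scale was read from the values, which ran from 7.65 to 36675. RMA normalizes arrays together and compresses low values, which understates changes of faint transcripts, and no detection calls were used. Per the labels' protocols RNA came from RNeasy Midi kits and was amplified with a MessageAmp kit.

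Values were put on the log2(value + 1) scale. Of 45101 probe sets 64 array controls were left out. The platform annotation, which can be old, gave 34945 of the others 1 symbol, 932 several and 9160 none, and genes were named only from 1 symbol. Symbols were set against RefSeq's gene table (GRCm38.p6), which matched 18145 genes and served for chromosomes and gene order. Unused columns numbered 0.

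Tests used limma 3.58.1 under R 4.3.3 (lmFit, contrasts.fit, eBayes), two-sided, with 1 coefficient per line over 12 arrays, 8 residual and 4.65 prior degrees of freedom, and a median residual SD of 0.154. The number of arrays limits the precision. The limma fit was also run on simulated data with independent noise on each array. Those data held no deviation shared by array letter, so they do not show how such sharing affects the calls. All members may be named; from other lists the called genes with the largest change, at most 4 per comparison; and the 3 genes most correlated with each called member. The members and lists were chosen with earlier results of these data known.

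The array letters were checked by the correlation of deviations from line means. It was 0.587, 0.360 and 0.560 for A, B and C between B140P and B140H, and 0.555, 0.0278 and 0.392 between B117P and B117H. For the parental lines it was 0.499, 0.131 and 0.414, and for the resistant lines 0.455, 0.349 and 0.532. Over all pairs of lines A ran from 0.455 to 0.587, C from 0.355 to 0.560 and B from -0.0432 to 0.367. The values for A and C were positive in every pair of lines, so arrays of these letters shared part of their deviations across lines. Arrays of different letters were not compared, and what the letters stand for was not tested. The main fit leaves the letter out, so this shared part stays in its residual spread. Alternatives were no pseudocount or one of 16, renormalization, bright probe sets only, the block by letter, other priors, array weights, fewer lines, fewer arrays and a threshold of 0.01.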

Additional observations from a re-analysis of the deposited data

Results flagged for a closer look

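For 3 transporters the change with resistance differed between the lineages by limma's test of the B140 change minus the B117 change. For Abcc2 this difference was 1.74 (adjusted p = 0.000114), for Abcb4 0.70 (adjusted p = 0.0117) and for Abcc1 0.62 (adjusted p = 0.00828). Abcc2 and Abcc1 fell in B117H and changed by 0.03 and 0.02 in B140H. Abcb4 changed upward on all resistant arrays of both lineages, more in B140H. Each line had 3 arrays, too few to search for single outlying arrays.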

How the results depend on the processing

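Of 1158 refitted log2 changes 1068 kept their direction and their side of the threshold, 56 lost a call, 11 gained one and 23 changed sign, all of the latter uncalled in each fit. Of 160 refitted counts 145 stayed within 1.5 times. How many of all probe sets or genes each alternative called is not given here. The counts below therefore show only how far the member calls depend on the processing. The called member probe sets in B117H numbered 2 with bright probe sets only (of 13 members tested) and 2 without all C arrays, and 3 to 4 with single arrays left out. When the probe sets of a gene were averaged 5 genes were called (2 rose, 3 fell). By leading probe set 3 genes were called there, and all 3 fell. Between lineages 5 were called with the replicate block and 1 each without all A, all B or all C arrays, and 3 to 5 with single arrays left out (5 without B140H A). Between B140H and B117H 4 were called with bright probe sets only, at an adjusted p under 0.01, without all B and without all C arrays, and 4 to 7 with single arrays left out (4 without B117H C or B140H A). Between the parental lines 3 of 14 were called without probe sets ending in _s_at, _x_at or _a_at, and the replicate block gave 6. The block brought the Abcb1b difference between the parental lines under the threshold (adjusted p = 0.00615) and, among the changes given, moved no other call than those of Abcc10 and Abcb1a between lineages.

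The changes that reversed sign reached values as far from 0 as -0.19, for Abcb1b in B117H without array A of B117P. With quantile normalization applied again the B140H change was -0.0178 for Abcc2, -1.16e-05 for Abcc3 and -0.0085 for Abcg2, and with arrays centred on their medians -0.0225 for Abcc1, -0.0104 for Abcc2, -0.0043 for Abcc3 and -0.0058 for Abcg2. Array weights gave -0.13 for Abcb1b in B117H and -0.0838 for Abcc3 in B140H. Without all A arrays Abcb1b was -0.11 in B117H and Abcg2 -0.0159 in B140H; without all B arrays Abcc3 was -0.18 and Abcc5 -0.0349 in B140H; without all C arrays Abcc3 was 0.0598 in B117H. With single arrays left out the ranges were -0.19 to 0.13 (Abcb1b) and -0.108 to 0.0280 (Abcc3) in B117H. In B140H they were -0.36 to 0.0351 (Abcb1b), -0.0054 to 0.0554 (Abcc1), -0.0051 to 0.0731 (Abcc2), -0.15 to 0.15 (Abcc3) and -0.0404 to 0.19 (Abcc5). The cause of these shifts was not tested. The fit on compared lines only does not exist for the average and the difference, which use all 4 lines. Low signal may limit Abcb1a, Abcc2, Abcc3, Abcc10, Abcg2 and the dimmer probe sets of Abcb1b and Abcc5, among them 1430882_at. Their levels lie within those of genes of other tissues, a range whose top is set by Prm1. Both Abcc10 probe sets lie above the median probe set, at percentiles 59.7 and 52.7 of mean level.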
